A study of Mus musculus with 4 samples.

Results

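Endothelial cells line the blood vessels, and in brown fat, which burns fuel for heat, they form the dense capillary bed that carries fuel and oxygen to the adipocytes. The 10 genes described here, Kdr, Flt1, Tie1, Tek, Cdh5, Pecam1, Esam, Emcn, Egfl7 and Cyyr1, are used as markers of these cells. They were selected on their normalised counts out of the 17259 genes of the deposited table, well seen in BAT-total and nearly absent from BAT-Mito, so the difference between these fractions is given as a description, with no test. The 4 libraries hold RNA of wild-type (WT) mouse brown fat, 2 of isolated mitochondria (BAT-Mito) and 2 of BAT-total. For BAT-total the treatment label names the tissue without its mitochondria, while the title and the study speak of total tissue. Strain, sex and age are not given in the labels, and nothing says that the libraries came from separate animals, so the spread between 2 libraries may be technical.

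Capillary endothelium answers to VEGF (vascular endothelial growth factor) through the receptors Kdr and Flt1, and to the angiopoietins through Tek, with Tie1 as its partner receptor. Cdh5 (VE-cadherin), Pecam1 and Esam hold neighbouring endothelial cells together at their junctions, and Emcn is a sialomucin of their surface. Egfl7 is secreted by endothelial cells into the matrix around the vessel. Cyyr1 encodes a small membrane protein whose role is less well known.

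Values are normalised counts, read counts per gene that the authors divided by a size factor per library and rounded. Reads were recovered in BAT-Mito, where each stands for 8.32 units in replicate 1 and 6.90 in replicate 2. In BAT-total the reads behind a unit are unknown. The BAT-Mito libraries held 26288871 and 24910434 reads, of which 49420 and 58238 fell on nuclear protein-coding genes, the reads on which a low transcript in BAT-Mito depends. Albumin mRNA (Alb), which is made in liver, stood at 594 and 57 reads in BAT-Mito and at 97 and 3 normalised counts in BAT-total, in both fractions higher in replicate 1. These transcripts stand in the totals used below as denominators, and their part in the results was not tested.

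Kdr, the main signalling receptor for VEGF, occupies chromosome 5, minus strand, 75932827 to 75978458 (GRCm38, as are all positions given here). Its normalised counts were 335 and 383 in BAT-total and 25 and 7 in BAT-Mito, from 3 and 1 reads. Both BAT-Mito libraries lay far below both BAT-total libraries. The mean of BAT-total was 359 ± 33.9 (SD, n = 2), or 23.8-fold the level given by the pooled BAT-Mito reads. The 95% interval of this fold was 9.29 to 87.3, an exact Poisson interval on the BAT-Mito reads. All such intervals cover counting error only.

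Flt1, a receptor that binds VEGF tightly and signals weakly, occupies chromosome 5, minus strand, 147561604 to 147726011. It stood at 217 and 214 in BAT-total, the most even pair after Esam. In BAT-Mito it had 0 reads in replicate 1 and 4 reads (28 units) in replicate 2, the reverse of Kdr. The mean in BAT-total, 216 ± 2.12 (SD, n = 2), was 14.3-fold the pooled BAT-Mito level (95% interval 5.58 to 52.4).

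Upstream sequence was set beside these receptors because the genes were selected together. RefSeq windows of the 250 bases before a transcription start (build GRCm38.p6) were found for 7 of the 10 genes, in 9 windows, and 4 are shown, chosen because at most 11 of their bases lie within the gene as listed. Capitals mark AGGAAG or CGGAAG on either strand, hexamers that hold the GGAA core of ETS factor sites. Other letters around this core were not searched. ETS factors such as Erg and Fli1 are known regulators of endothelial genes.

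Flt1, minus strand, chr5:147726012-147726261: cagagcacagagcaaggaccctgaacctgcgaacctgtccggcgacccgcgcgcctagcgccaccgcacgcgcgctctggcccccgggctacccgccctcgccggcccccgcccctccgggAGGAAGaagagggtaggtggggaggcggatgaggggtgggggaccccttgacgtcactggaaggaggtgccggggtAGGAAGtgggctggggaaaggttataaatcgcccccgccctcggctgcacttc

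Emcn, plus strand, chr3:137340828-137341077: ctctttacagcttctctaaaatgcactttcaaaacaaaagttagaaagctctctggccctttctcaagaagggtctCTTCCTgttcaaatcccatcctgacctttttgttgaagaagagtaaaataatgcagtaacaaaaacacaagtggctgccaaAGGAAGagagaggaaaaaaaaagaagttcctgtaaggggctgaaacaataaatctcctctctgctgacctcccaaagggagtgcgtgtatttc

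Kdr, minus strand, chr5:75978456-75978705: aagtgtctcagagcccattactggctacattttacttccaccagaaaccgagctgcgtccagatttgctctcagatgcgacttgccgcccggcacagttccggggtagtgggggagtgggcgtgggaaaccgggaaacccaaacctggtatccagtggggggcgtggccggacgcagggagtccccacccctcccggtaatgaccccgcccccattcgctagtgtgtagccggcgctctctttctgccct

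Tek, plus strand, chr4:94739039-94739288: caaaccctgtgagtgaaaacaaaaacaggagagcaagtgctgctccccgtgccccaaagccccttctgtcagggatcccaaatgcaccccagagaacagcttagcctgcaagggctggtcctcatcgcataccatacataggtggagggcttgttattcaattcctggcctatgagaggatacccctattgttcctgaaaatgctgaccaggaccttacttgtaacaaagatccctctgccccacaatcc

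The Flt1 window held these letters 2 times, 129 and 53 bases before the start, and the Emcn window 2 times, 174 and 93 bases before it. Those of Kdr and Tek held neither hexamer, though both hold the shorter core GGAA or its reverse, TTCC. Of the 9 windows, 6 held a match, in 5 of the 7 genes (Flt1, Emcn, Tie1, Egfl7 and Cyyr1), against 39.2% of the 32851 mouse promoter windows of the same length. The letters AGATAA, read by GATA factors, and the letters TAAACA, read by forkhead factors, were searched on both strands and were in 0 of the 9 windows, while 9.99% and 12.0% of all windows held them. These are letters in a window and were not tested as sites.

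Tie1 (chromosome 4, minus strand, 118471191 to 118490061) and Tek (chromosome 4, plus strand, 94739289 to 94874976) encode the TIE receptors. Tie1 stood at 73 and 50 in BAT-total and at 17 and 0 in BAT-Mito, from 2 and 0 reads. The lower BAT-total library was still above the higher BAT-Mito library, but its BAT-total pair was the least even of the 10, with a difference of -31.5% from replicate 1 to replicate 2. Its mean in BAT-total, 61.5 ± 16.3 (SD, n = 2), was 8.15-fold the pooled BAT-Mito level (95% interval 2.26 to 67.3), the smallest such ratio among the 7 genes with any read in BAT-Mito. Tek stood at 81 and 88 in BAT-total and at 8 and 0 in BAT-Mito, from 1 read and 0 reads. That single read gave a ratio of 22.4 with a 95% interval of 4.02 to 885, so its size is hardly fixed from above.

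Among the junction genes, Cdh5 (chromosome 8, plus strand, 104101625 to 104144511) stood at 257 and 236 in BAT-total. In BAT-Mito it had 5 reads (42 units) in replicate 1 and 0 in replicate 2, the most reads of any of the 10 genes in a single library. The mean in BAT-total was 247 ± 14.8 (SD, n = 2), 13.1-fold the pooled BAT-Mito level (95% interval 5.60 to 40.2).

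Pecam1 (chromosome 11, minus strand, 106654217 to 106750628), which encodes CD31, stood at 137 and 146 in BAT-total and at 17 and 0 in BAT-Mito. The ratio was 18.8 (95% interval 5.19 to 155), from 2 reads. Esam (chromosome 9, plus strand, 37528078 to 37538319) was at 52 in both BAT-total libraries and at 8 and 0 in BAT-Mito. With 1 read its ratio was 13.8 (95% interval 2.47 to 544). All 3 junction genes had their BAT-Mito reads in replicate 1.

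Emcn, Egfl7 and Cyyr1 had 0 reads in both BAT-Mito libraries. A count of 0 allows up to 3 reads per library, a floor that averages 22.8 units, and a fold against it is a lower bound. This floor is set per library and is looser than the intervals from pooled reads above, so bounds of the 2 kinds are not ranked. Cyyr1 (chromosome 16, minus strand, 85421533 to 85553397) stood at 143 and 153 in BAT-total and was at least 6.48-fold lower in BAT-Mito. Egfl7 (chromosome 2, plus strand, 26580014 to 26593120) stood at 75 and 98 and was at least 3.79-fold lower. Emcn (chromosome 3, plus strand, 137341067 to 137432185) stood at 28 and 36 and was at least 1.40-fold lower, so that at its level the depth of BAT-Mito left little room to show a loss.

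Genes that overlap Egfl7 and Cyyr1 bear on their counts. Egfl7 exons share 64 bases with the antisense gene Agpat2, which stood at 754 and 834 in BAT-total and at 117 and 152 in BAT-Mito, and whether the counting used strand is not stated. They hold the 73 bases of the hairpin gene Mir126a (2.04% of the exon length) on the same strand, and they share 58 bases with the antisense hairpin gene Mir126b, at 3 and 3 in BAT-total and 0 in BAT-Mito. Cyyr1 exons share 165 bases with the pseudogene Gm2541 on the same strand. The overlaps with Agpat2, Mir126b and Gm2541 are 1.79%, 1.62% and 1.86% of the exon length. Another 264 bases of Egfl7 exon (7.37%) are shared with Gm20532 on the same strand, and reads assigned to several genes were left out by the authors.

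**Figure D1:**
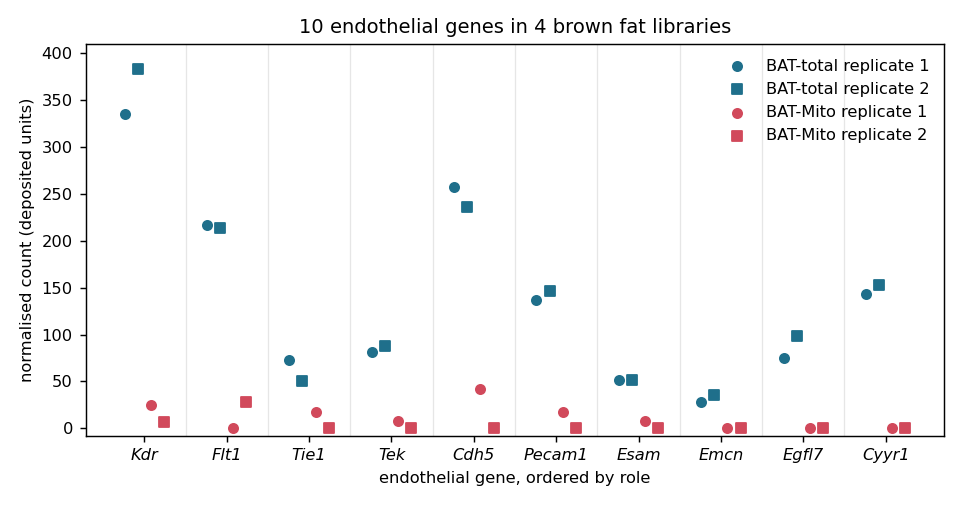
Normalised counts (vertical axis, deposited units) of the 10 endothelial genes in each of the 4 libraries, with 1 point per library. In every gene both BAT-Mito points lie below both BAT-total points, from Kdr at 335 and 383 in BAT-total down to Emcn at 28 and 36.

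All 10 genes passed the filter of a mean of at least 10 over the 4 libraries, and in all 10 both BAT-Mito libraries lay below both BAT-total libraries. Of the 8215 genes that passed this filter, 52.1% did the same. Of the tested genes 4.53% had 0 reads in both BAT-Mito libraries, against 3 of the 10. These counts follow from the way the genes were chosen, and nothing is read from them. Replicate 2 of BAT-Mito had 0 reads in 8 of the 10 genes and replicate 1 in 4.

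Levels in BAT-total can be compared between genes only per length of exon. Per kb of exon Cdh5 was highest, at 58.6 ± 3.53 normalised counts (SD, n = 2), and Kdr followed at 39.8 ± 3.76, the libraries of the 2 genes not overlapping. Egfl7 (24.2 ± 4.54) and Pecam1 (22.7 ± 1.02) came next and did not differ beyond their spread. Esam (18.1 in both libraries), Tek (17.9 ± 1.05) and Cyyr1 (16.6 ± 0.795) formed a run in which each overlapped the next. Flt1 was at 16.0 ± 0.157, and its higher library and the lower library of Cyyr1 both rounded to 16.1. Tie1 (12.5 ± 3.31) and Emcn (5.92 ± 1.05) closed the order without overlap. The range from Emcn to Cdh5 was 9.91-fold. Of the 10 genes 9 lay above the median of all tested genes, 7.61 normalised counts per kb, and Emcn lay below it.

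**Figure D2:**
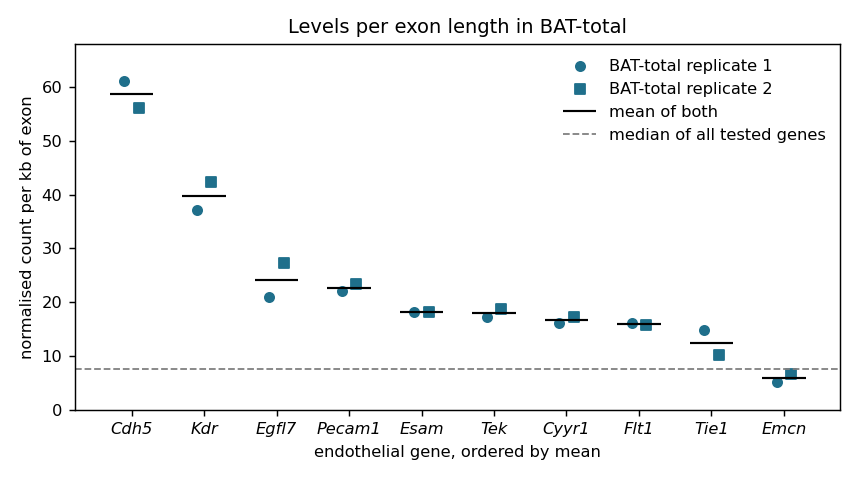
Normalised count per kb of exon (vertical axis) of the 10 genes in both BAT-total libraries, ordered by their mean (black line), with the median of all tested genes dashed. Cdh5 at 58.6 and Kdr at 39.8 stand apart from the other genes, which lie between 5.92 and 24.2.

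Between the VEGF receptors Kdr stood 2.49-fold above Flt1 per kb, and between the TIE receptors Tek stood 1.43-fold above Tie1, in both cases without overlap of the BAT-total libraries. These ratios and the order above use the merged exons of all annotated transcripts, 9.03 kb in Kdr and 13.5 kb in Flt1. Which transcripts were expressed was not tested. With 2 libraries a side no exact permutation test can pass 0.05, and none was run. From replicate 1 to replicate 2 of BAT-total the difference was -31.5% in Tie1, 30.7% in Egfl7 and 28.6% in Emcn, and smaller in the others. Replicate 2 was higher in 6 genes, lower in 3 and equal in Esam, and the median difference between the libraries was 8.40% of their mean. Over the 4217 genes with a BAT-total mean within the range of the 10 (32 to 359) it was 14.8%.

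Summed over the 10 genes, the normalised counts were 1398 and 1456 in BAT-total and 117 and 35 in BAT-Mito, from 14 and 5 reads. The mean of the sums was 1427 ± 41.0 in BAT-total and 76.0 ± 58.0 in BAT-Mito (SD, n = 2 each), a ratio of 18.8. With the 19 reads pooled and set to the upper end of their exact Poisson interval the ratio was 12.7, which covers counting error on the deposited scale and not the spread between libraries. With BAT-Mito replicate 1 left out the ratio was 40.8, and with replicate 2 left out it was 12.2, so that the size of the difference rests on which mitochondrial library is used. Scaling by the median of ratios over nuclear genes gave 11.6, equal totals over nuclear protein-coding genes 12.0, and TMM (trimmed mean of M-values) scaling 14.6.

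The same difference can be read as a share of nuclear protein-coding transcripts. This is the scaling to equal nuclear protein-coding totals in another form, and no independent measure. In BAT-total the 10 genes took 0.217% and 0.230% of the nuclear protein-coding signal, a mean of 0.223% ± 0.00921 (SD, n = 2). In BAT-Mito replicate 1 they took 0.0283% of the nuclear protein-coding reads (14 of 49420, exact Clopper-Pearson 95% interval 0.0155 to 0.0475%). In replicate 2 they took 0.00859% (5 of 58238, 95% interval 0.00279 to 0.0200%). At the mean share of BAT-total these libraries would have held 110 and 130 such reads, so that 12.7% and 3.84% of that number were seen. BAT-Mito is labelled as isolated mitochondria, a fraction and not whole cells. As these are bulk RNA libraries, a loss of these RNAs within the isolation, fewer endothelial cells and less RNA per cell cannot be told apart. For heart the study describes digitonin and RNase A on isolated mitochondria before extraction, and whether brown fat was treated likewise is not stated.

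Markers of the other cells of the tissue were summed in the same way. Mural cell genes, of the pericytes and smooth muscle around the vessels, took 0.202% and 0.180% in BAT-total and 0.105% and 0.0927% in BAT-Mito. Their sum was 3.03-fold higher in BAT-total on the deposited scale, led by Rgs5 at 534 and 491 against 17 and 35, and Abcc9 at 133 and 133 against 17 and 21. In 7 of the 10 both BAT-Mito libraries lay below both BAT-total libraries, Myh11 and Tagln overlapped, and in Des (80 and 58 against 108 and 159) both lay above. The brown adipocyte genes took 2.08% and 1.79% in BAT-total and 0.741% and 1.73% in BAT-Mito. Their sum was 2.47-fold higher in BAT-total, 4.06-fold against BAT-Mito replicate 1 alone and 1.78-fold against replicate 2 alone. Of these Ucp1, the uncoupling protein of thermogenesis, stood at 4819 and 4185 against 1290 and 3554, and lipoprotein lipase, Lpl, at 3804 and 3176 against 816 and 1263. In 8 of the 10 both BAT-Mito libraries lay below both BAT-total libraries. Cidec (733 and 463 against 258 and 600) and Elovl3 (8 and 41 against 25 and 14) overlapped.

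The summed shares of the remaining lists were higher in BAT-Mito or overlapped those of BAT-total. Fibroblast genes took 0.188% and 0.178% in BAT-total and 0.374% and 0.446% in BAT-Mito, with Col3a1 at 535 and 511 against 682 and 835, and Col1a2 at 255 and 240 against 433 and 331. In 4 of the 6 both BAT-Mito libraries lay above both BAT-total libraries, and Col1a1 and Pdgfra overlapped. Macrophage genes took 0.0102% and 0.0123% against 0.0971% and 0.0601%, with Mrc1 at 21 and 17 against 100 and 124, and Ptprc at 8 and 21 against 33 and 7. In 4 of the 6 both BAT-Mito libraries lay above both BAT-total libraries, and Ptprc and Cd68 overlapped. Red blood cell genes took 0.0459% and 0.0986% against 0.0607% and 0.158%, with Hba-a1 at 93 and 174 against 67 and 159, and Hbb-bs at 73 and 184 against 108 and 186. In all 5 the fractions overlapped, with Hbb-bt at 44 and 98 against 0 and 48. The endothelial genes were chosen for their low values in BAT-Mito, so no test sets them against these lists.

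**Figure D3:**
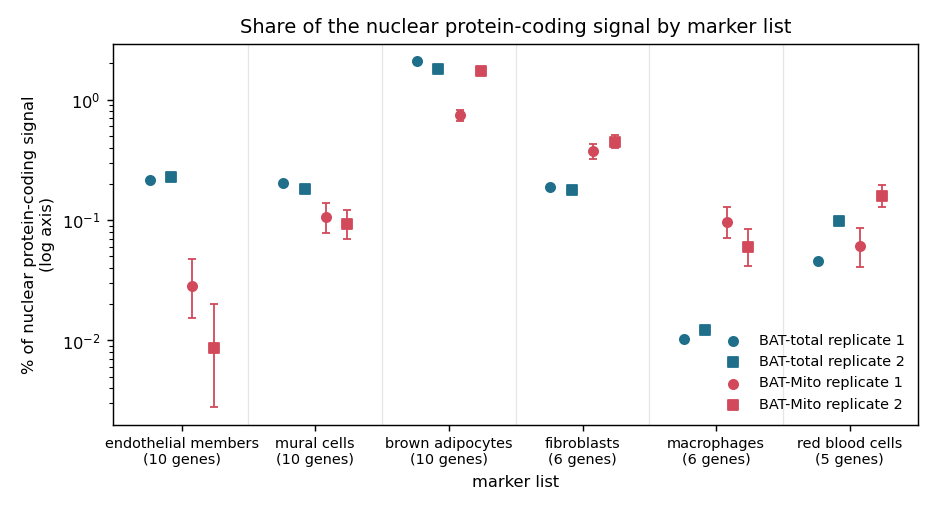
Share of the nuclear protein-coding signal (percent, log axis) taken by each marker list in each library, with 95% exact Clopper-Pearson intervals for BAT-Mito, where reads were recovered. The endothelial genes fall from 0.217% and 0.230% in BAT-total to 0.0283% and 0.00859% in BAT-Mito, while the macrophage and fibroblast lists are higher in both BAT-Mito libraries.

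On the log2(normalised count + 1) scale the 10 genes had a median difference, BAT-Mito minus BAT-total, of -5.05, against -1.23 for all tested genes. The median of the 10 was -6.18 without BAT-Mito replicate 1, -3.52 without BAT-Mito replicate 2 and -3.23 with a pseudocount of 10. With genes at 0 reads in both BAT-Mito libraries set to the floor, the medians were -4.39 and -1.08, and Emcn then lay above the median of all genes. Other scalings shifted the median of all genes to between -0.90 and -0.62, and relative to it the median of the 10 genes was -3.82 as deposited, -3.93 with TMM, -4.01 with the median of ratios and -4.03 with equal nuclear protein-coding totals.

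Other genes of blood vessels, listed by role and not members of the 10, were tested between the fractions with limma. Of 87 such genes 82 were in the table, 60 passed the filter, and their median log2 difference was -2.88 (-2.27 with genes at 0 reads set to the floor). At an adjusted p under 0.05, 13 were lower in BAT-Mito and 0 higher, while 4.41% of all tested genes were called lower and 0.803% higher. At an unadjusted p under 0.05 limma gave 25 lower and 1 higher, against 1225 and 263 of all 8215 tested genes. All 13 had 0 reads in both BAT-Mito libraries, as had 359 of the 362 genes called lower in all, so that limma saw no spread in BAT-Mito for them. These 13 are all the tested vascular genes at 0 reads, and the limma call adds nothing to the 0. With edgeR on BAT-Mito reads, and BAT-total values taken as reads, 17 were lower and 0 higher, where 4.02% and 1.64% of all tested genes were called. Genes such as Eng, Ets1, Adgrl4 and Arhgef15, with 1 or 2 reads in BAT-Mito, passed the filter only through their BAT-total values. Klf2, S1pr1 and Rasip1 are in both sets of calls, but they too are at 0 reads. No p is given below for genes at 0 reads in both BAT-Mito libraries, and each is described by its values. With the replicate number as a block, with a pseudocount of 10 and with a mean of at least 50, limma called 0 vascular genes lower. Over all tested genes these settings called 0, 1 and 11 lower. With 1 library left out limma's counts moved widely, for these genes as for all tested genes, where 1 fraction then rested on 1 library.

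S1pr1, the receptor for sphingosine-1-phosphate that guards the endothelial barrier, stood at 71 and 94 in BAT-total and had 0 reads in both BAT-Mito libraries, at least 3.61-fold lower. Klf2, a transcription factor induced by blood flow, stood at 42 and 75 against 0 and 0, at least 2.56-fold lower. Rasip1, a protein needed for the vessel lumen, stood at 48 and 47 against 0 and 0, at least 2.08-fold lower.

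Of the VEGF ligands and co-receptors 5 of 8 were tested and 0 were called by limma (1 lower at an unadjusted p under 0.05), against 2 lower by edgeR, Vegfa and Nrp2. The ligand Vegfa, which adipocytes also make, stood at 607 and 640 in BAT-total and at 117 and 145 in BAT-Mito, a log2 difference of -2.25 (SE 0.42, limma adjusted p = 0.140, edgeR adjusted p = 0.0289). The log2 difference of its receptor Kdr was -4.64, and the genes were not tested against each other. The co-receptor Nrp1 stood at 394 and 401 against 233 and 117 (limma adjusted p = 0.319). Of the angiopoietins and TIE partners 2 of 4 were tested, with 0 called by limma (0 at an unadjusted p under 0.05) and 1 lower by edgeR. The ligand Angpt2 stood at 6 and 5 against 0 and 48 (limma adjusted p = 0.975, edgeR adjusted p = 0.401). The gene called by edgeR, Ptprb, the phosphatase that restrains Tek, stood at 255 and 351 against 42 and 0 (limma adjusted p = 0.298, edgeR adjusted p = 0.0275), and the ligand Angpt1, at 13 and 13 against 8 and 0, was under the filter.

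None of the 8 tested junction and adhesion genes was called by limma, 1 at an unadjusted p under 0.05, and 1 was called lower by edgeR, Jam2. Jam2 stood at 63 and 80 against 8 and 7, and the surface receptor Cd93 at 58 and 85 against 0 and 28 (limma adjusted p = 0.0678 and 0.355). In the transcription factor list 4 of 8 were at 0 reads in BAT-Mito, Klf2, Sox18 (40 and 27 in BAT-total), Elk3 (31 and 31) and Gata2. The factors with the highest levels were Epas1, which encodes the hypoxia factor HIF-2α, at 640 and 655 against 117 and 248, and Ets1 at 95 and 133 against 0 and 14, neither past the threshold with limma (adjusted p = 0.259 and 0.270). By edgeR Ets1, with 2 reads in BAT-Mito, was lower (adjusted p = 0.0323).

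Of the 4 endoglin and BMP receptor genes limma called 0 (2 at an unadjusted p under 0.05) and edgeR 2 lower, Eng and Bmpr2. Eng, a co-receptor for BMP9 on endothelium, stood at 118 and 166 against 8 and 0, from 1 read (limma adjusted p = 0.195, edgeR adjusted p = 0.0188). Bmpr2 stood at 176 and 182 against 33 and 35 (limma adjusted p = 0.115, edgeR adjusted p = 0.0313). In the Notch and arterial list 2 of 5 were at 0 reads in BAT-Mito, Notch4 (32 and 25 in BAT-total) and Efnb2 (21 and 27), and edgeR called 0 (3 lower at an unadjusted p under 0.05). Notch1 stood at 69 and 108 against 8 and 28 (limma adjusted p = 0.272). None of the 4 venous genes was called by limma or edgeR, with 0 at an unadjusted p under 0.05 by limma and 1 by edgeR. Of these Ephb4 stood at 98 and 80 against 25 and 48, and Nr2f2 at 41 and 38 against 67 and 0.

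Genes of capillaries and lipid transport were all tested, 11 of 11, and 3 were at 0 reads in BAT-Mito, Car4 (54 and 27 in BAT-total), Meox2 (29 and 28) and Tcf15 (31 and 20). The Meox2 and Tcf15 proteins are transcription factors of fatty acid uptake in capillary endothelium, and Car4 is a carbonic anhydrase of the capillary surface. EdgeR called 4 of the list lower, Gpihbp1, Cd36, Aqp1 and Cav1. The genes with the highest levels are shared with adipocytes. Fabp4 stood at 5208 and 4746 against 957 and 2823 and Cd36 at 1677 and 1614 against 441 and 442, with limma adjusted p = 0.325 and 0.172.

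In the list of nitric oxide and G protein-coupled receptor genes 2 of 6 were at 0 reads in BAT-Mito, S1pr1 and Nos3, the endothelial nitric oxide synthase, at 28 and 51 in BAT-total. The receptors with the highest levels were Adgrf5, at 374 and 432 against 83 and 0, and Adgrl4, at 67 and 103 against 8 and 0, from 1 read (edgeR adjusted p = 0.0415 and 0.0360, limma adjusted p = 0.326 and 0.228). Of the other pan-endothelial genes 2 of 5 were at 0 reads in BAT-Mito, Rasip1 and Robo4 (28 and 31 in BAT-total). Arhgef15 stood at 68 and 59 against 0 and 7, from 1 read (limma adjusted p = 0.228, edgeR adjusted p = 0.0412).

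Of the 5 lymphatic genes 2 were listed, Lyve1 and Reln, and Prox1, Pdpn and Ccl21a were not analysed here. Lyve1, a hyaluronan receptor of lymphatic endothelium that macrophages and liver sinusoids also carry, stood at 3 and 3 in BAT-total and at 33 and 21 in BAT-Mito, from 4 and 3 reads (log2 difference 2.77, SE 0.47, limma adjusted p = 0.112, edgeR adjusted p = 0.238). Reln stood at 7 and 3 against 42 and 7, and neither gene was called. Lyve1 was the 1 vascular gene of 60 with both BAT-Mito libraries above both BAT-total libraries, which 8.59% of all tested genes were. In 49 of the 60 both lay below, as in 52.1% of all tested genes.

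**Figure D4:**
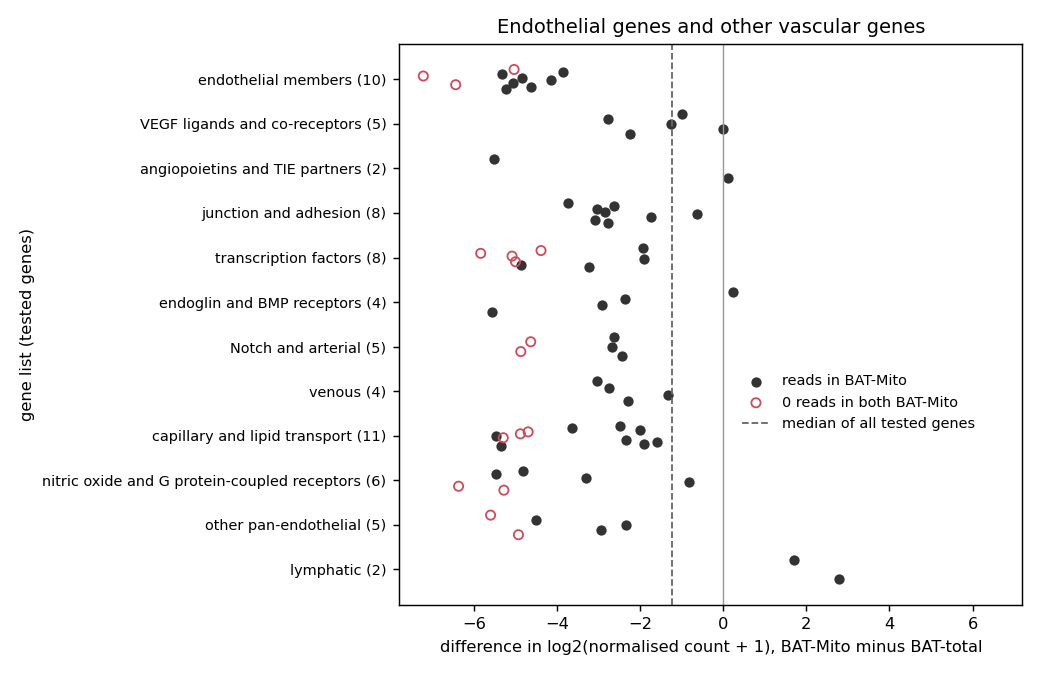
Difference in log2(normalised count + 1), BAT-Mito minus BAT-total (horizontal axis), for the 10 endothelial genes and the 60 tested vascular genes of 11 lists, 1 point per gene, with open red points for genes at 0 reads in both BAT-Mito libraries. The 10 endothelial genes lie at -3.86 or below, left of the median of all tested genes at -1.23 (dashed), and the 2 lymphatic genes lie to the right of 0.

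The tested genes nearest to the mean pattern of the 10, by Euclidean distance of log2(normalised count + 1) over the 4 libraries, were Btnl9 (distance 1.05), Ctcflos (1.06), Zzef1 (1.06), Gpihbp1 (1.07) and Adamts1 (1.17). All 5 had 1 read in BAT-Mito replicate 1 and 0 in replicate 2. Gpihbp1, which carries lipoprotein lipase across the capillary wall, stood at 126 and 115 in BAT-total, and Btnl9 at 108 and 120. Tek was the nearest of the 10 themselves, at 1.19, and Flt1 the farthest at 4.95, since its reads in BAT-Mito were in replicate 2.

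In the deposited gene annotation, 8 of the 10 genes carried a complete list of Gene Ontology terms, with none given for Kdr and the list of Tek broken off. Of these 8, 7 were integral components of membranes, a term of 21.1% of the 6402 tested genes with complete lists, and 4 were annotated to angiogenesis, a term of 2.58%. The term mitochondrion was on 0 of the 8 and on 16.2% of the tested genes. The 7 membrane genes were Cyyr1, Emcn, Cdh5, Esam, Flt1, Pecam1 and Tie1, and Egfl7 was annotated to the extracellular region.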

How the data were processed

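RNA of isolated mitochondria (BAT-Mito, n = 2) and of BAT-total (n = 2) was compared. Per the submitters' processing notes, reads were trimmed (Trimmomatic 0.39), aligned to GRCm38 (STAR 2.7.10a) and counted per gene (featureCounts 2.0.2), and per the methods of the study reads of several positions or genes were left out. The methods name other versions of STAR, featureCounts and DESeq2 than the notes, whose versions are given here. The deposited signal is gene counts that the authors divided by DESeq2 (1.30.1) size factors and rounded. Strandedness of the counting is not given in the sources used here. Mitochondrial samples had a fragmentation time of their own, so that library preparation may have differed with the fraction. Steps in the BAT-Mito values gave whole reads for 100.0% of values in both libraries, to within 0.493 units in replicate 1 and 0.495 in replicate 2. Depth in BAT-total is unknown.

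Genes with a mean of at least 10 (8215) were tested with limma 3.58.1 in R 4.3.3 on log2(value + 1), with Benjamini-Hochberg adjustment and a threshold of 0.05. Because the study's DESeq2 needs counts, edgeR 4.0.16 (quasi-likelihood) and DESeq2 1.42.0 were run as alternatives on BAT-Mito reads, with BAT-total values taken as reads. They called 330 and 236 genes lower and 135 and 189 higher, against 362 and 66 with limma. On simulated data, with BAT-total values again taken as reads, edgeR called part of the changed genes and limma called none of them. As the depth of BAT-total is unknown, the simulation cannot rank the tools for these data. Exon lengths are merged exons of GENCODE M21, whose coordinates equal the table's for 99.1% of genes. Promoter windows are from RefSeq.

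The 10 genes and all lists were chosen with earlier results of these data known. Named are all 10 genes, up to 3 limma calls per direction and the 2 highest genes of each vascular list, the 2 highest of each other list, and the 5 nearest genes. Gata2, Nrp2, Aqp1, Cav1, Cd68, Col1a1, Pdgfra, Hbb-bt, Angpt2, Des, Myh11, Tagln, Cidec, Elovl3 and Alb are named because a count was small or they were singled out, after their values were seen. Sele and Bmx were also not analysed here.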

Additional observations from a re-analysis of the deposited data

How the results depend on the processing

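The 10 endothelial genes kept a negative log2 difference under each scaling, pseudocount, replicate block and left-out library, with a median between -6.18 and -3.52 over left-out libraries, -3.23 with a pseudocount of 10 and -4.63 to -4.83 under other scalings. Their share of nuclear protein-coding signal in BAT-total, 0.223%, became 0.184% of all nuclear and 0.0822% of all genes.

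Counts of calls depended on the setting. Genes lower in BAT-Mito, 362 as reported, were 1 with a pseudocount of 10, 3587 with all genes of any count, 11 with a mean of at least 50, 236 with DESeq2, and 0 to 3864 over left-out libraries. Genes higher, 66 as reported, were 143 with any count, 135 with edgeR, 189 with DESeq2, and 0 to 622 over left-out libraries. The vascular genes called lower, 13 as reported, were 0 with a pseudocount of 10 and with a mean of at least 50 (32 and 11 at an unadjusted p under 0.05), 24 with any count, 12 with DESeq2, and 0 to 46 over left-out libraries. Those called higher, 0 as reported, were 1 with any count and 0 to 2 over left-out libraries. Without either BAT-total library limma called 0 genes, while without a BAT-Mito library it called 3374 and 3864 lower, where the lone library is assumed to vary like the even BAT-total pair.

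With the replicate block limma called 0 genes lower and 0 higher (707 and 237 at an unadjusted p under 0.05) and 0 vascular genes (23 lower and 1 higher unadjusted). The labels share replicate numbers and state no pairing, and the replicate differences of the fractions correlated with r = 0.112 across genes. Depth limits the loss of low genes, since 3 reads per BAT-Mito library already equal 22.8 units.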
